A study of Mus musculus with 9 samples.

Results

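The 8 genes described here encode the proteins that detect double-stranded RNA inside the cell and pass the signal on: the helicases Ddx58 (RIG-I), Ifih1 (MDA5) and Dhx58 (LGP2), the endosomal receptor Tlr3, the kinase Eif2ak2 (PKR), the adaptor Mavs, and the transcription factors Irf3 and Irf7. They were chosen by symbol from a gene count table with 23358 entries; all 8 were found and all 8 passed the filter on low counts, which kept 13240 genes. The cells were marrow mesenchymal stem cells of adult mice (C57BL/6 background, passage 4 to 10). They were kept in osteogenic medium and harvested on day 4 of siRNA treatment. RNA sequencing covered 3 groups of 3 biological replicates each. The siCTL group received a non-targeting siRNA. The GSK126 group received the same non-targeting siRNA together with 5 µM GSK126, an inhibitor of the histone methyltransferase Ezh2. The siBcat group received siRNA against β-catenin, the product of Ctnnb1. By title and source these last libraries had no inhibitor, but their treatment label also lists 5 µM GSK126; groups follow the titles here. Every group carried an siRNA, and no library analysed here lacked one.

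Double-stranded RNA in the cytosol is a sign of viral infection, and synthetic siRNA is itself short double-stranded RNA. RIG-I and MDA5 bind double-stranded RNA of viruses and engage Mavs on the mitochondrial surface. From there, kinases phosphorylate Irf3 and Irf7, which then switch on type I interferon genes. Tlr3 senses double-stranded RNA in endosomes and signals through a separate adaptor. PKR binds double-stranded RNA directly and phosphorylates the translation factor eIF2α, which slows protein synthesis. Secreted interferon acts back through a complex that holds Stat2 and Irf9 on interferon-stimulated response elements, and most of the sensors, as well as Irf7, are themselves interferon-inducible, whereas Mavs and Irf3 are present at steady levels in most cells.

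The interferon-stimulated response element is the sequence through which interferon acts on many of its target genes, so matches near the members' start sites are shown first. Its core, searched on both strands as GAAA, any 2 bases and GAAA again, was found in 3.44% of 32851 RefSeq promoter windows of 300 bases (250 before to 50 after the start site, GRCm38.p6). By gene, the unit in which members are counted, 3.99% of 27025 genes held the core in at least 1 window. Of the 7 members with a window, 3 held it: Ddx58 (base 3 after the start site, on the opposite strand), Ifih1 (base 33) and Eif2ak2 (base 19). None of these matches shared bases with a match to the other motifs searched. The Stat2 and Ifit1 windows, for a signalling factor and an effector of the same system, held it further upstream. In the following stretches of 30 bases the core is in capitals, written 5′ to 3′ on the gene's strand.
Ddx58 (chr4:40239804-40239833, minus strand): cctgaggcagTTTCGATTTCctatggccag
Ifih1 (chr2:62646206-62646235, minus strand): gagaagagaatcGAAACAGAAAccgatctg
Eif2ak2 (chr17:78882535-78882564, minus strand): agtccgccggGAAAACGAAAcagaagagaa
Stat2 (chr10:128270266-128270295, plus strand): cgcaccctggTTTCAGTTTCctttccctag
Ifit1 (chr19:34640785-34640814, plus strand): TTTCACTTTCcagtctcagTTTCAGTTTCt
The Irf7 window held no such core but held overlapping matches to GGG, any 5 bases and CC, an NF-κB pattern. The pattern was found in 50.8% of all windows, in 53.5% of genes and in 4 of the 7 members. The Irf7 matches are in capitals below.
Irf7 (chr7:141266462-141266491, minus strand): accctgcctGGGCTCTGCCCcgcctctgcc
The Stat pattern TTCNNNGAA was in 8.3% of windows, in 9.55% of genes and in 1 member, Eif2ak2. The TCF/LEF pattern CTTTGAT, through which β-catenin acts on DNA, was in 3.73% of windows, in 4.29% of genes and in 0 of the 7 members. With so low a share over all genes, 0 of 7 tells little about the members. A match is a description of letters and not evidence of binding.

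On mm10 (GRCm38, GENCODE M21) the genes lie on separate stretches of the genome. Ddx58 spans chromosome 4, 40203773 to 40239828, and Ifih1 chromosome 2, 62595798 to 62646255. Dhx58 spans chromosome 11, 100694884 to 100704271, and Tlr3 chromosome 8, 45395665 to 45411080. Eif2ak2 spans chromosome 17, 78852564 to 78882573, and Mavs chromosome 2, 131234063 to 131248025. Irf3 spans chromosome 7, 44997648 to 45002848, and Irf7 chromosome 7, 141262706 to 141266481. Exons of other genes on the opposite strand overlap 4.31% of the exonic bases of Dhx58 (Dhx58os), 7.32% of Tlr3 (Gm45542), 3.4% of Eif2ak2 (Gm26637), 2.56% of Irf3 (Bcl2l12) and 1.19% of Irf7 (Phrf1). Whether counting used strand is not given in the sources used here, so reads from those stretches cannot be assigned.

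The libraries held 42324200 to 55898774 counts. Ctnnb1 was 864 ± 12.8 CPM (counts scaled by TMM to a common library total; SD, n = 3) in siCTL, 927 ± 21.9 CPM in GSK126 and 19.3 ± 0.114 CPM in siBcat, so the 3 siBcat libraries were depleted to nearly the same level. In the GSK126 group, replicate 3 stood apart from the others in a trend with gene length, which took 21.4% of the variance of its deviations against 7.09% and 9.08% in replicates 1 and 2. The labels do not say whether replicates came from separate animals or cultures, so p-values measure only the spread between these libraries.

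In siBcat against siCTL, 6 of the 8 genes rose and 0 fell. They were the helicases Ddx58, Ifih1 and Dhx58, the receptor Tlr3, the kinase Eif2ak2 and the transcription factor Irf7. Mavs and Irf3 were not past the threshold, an adjusted p of 0.05 in edgeR's quasi-likelihood test with Benjamini-Hochberg adjustment over all 13240 genes. DESeq2 and limma-voom gave the same counts, as did edgeR at an unadjusted p under 0.05. Of all genes tested, 35.2% were called in this comparison, 17.7% higher and 17.5% lower. The same 6 genes had every siBcat library above every siCTL library, against 28% of all genes. The median log2 fold change was 0.63 over the 8 genes and 0.00244 over all genes tested. In such bulk libraries, more cells with the RNA and more RNA per cell cannot be told apart.

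Among the helicases, Dhx58 changed most. LGP2, its product, lacks the signalling domains of RIG-I and MDA5 and modulates how they bind RNA. Dhx58 stood at 1.31, 0.793 and 0.976 CPM in the siCTL libraries and at 9.69, 4.33 and 4.77 CPM in siBcat. The groups were well apart, and siBcat replicate 1 was the highest library. Its fitted change was 6.06-fold (log2 2.60, SE 0.32, adjusted p = 9.28e-05, edgeR).

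Ddx58, whose product RIG-I recognises short double-stranded RNA with 5′ phosphates, stood at 21.8, 24.1 and 26.2 CPM in siCTL and at 50.9, 33.0 and 35.97 CPM in siBcat. Its groups did not overlap, and siBcat replicate 1 again lay above the other siBcat libraries. The change was 1.66-fold (log2 0.73, SE 0.14, adjusted p = 0.00267, edgeR). Ifih1, whose product MDA5 assembles on long double-stranded RNA, stood at 19.2, 20.5 and 22.4 CPM in siCTL and at 46.8, 30.9 and 31.2 CPM in siBcat. The pattern over the libraries was that of Ddx58, with replicate 1 above a close pair. Its change was 1.75-fold (log2 0.81, SE 0.15, adjusted p = 0.00242, edgeR).

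Tlr3 and Eif2ak2 rose too, and leaving out single libraries ended these calls in some fits. Tlr3 stood at 4.66, 4.58 and 4.24 CPM in siCTL and at 7.5, 5.38 and 6.52 CPM in siBcat. The lowest siBcat library was above the highest siCTL library. The change was 1.44-fold (log2 0.52, SE 0.17, adjusted p = 0.0281, edgeR). Without siCTL replicate 1, 2 or 3 the adjusted p was 0.06, 0.0755 and 0.0879, and without siBcat replicate 1 or 3 it was 0.133 and 0.0748, so the call was lost in 5 of the 9 fits that leave out 1 library. Over the 21 refits, the adjusted p of Tlr3 ran from 0.00268 to 0.133.

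Eif2ak2 stood at 53.1, 52.9 and 61.5 CPM in siCTL and at 93.6, 72.0 and 77.6 CPM in siBcat. All siBcat libraries were above all siCTL libraries. The change was 1.45-fold (log2 0.54, SE 0.14, adjusted p = 0.0127, edgeR). Without siCTL replicate 2 the adjusted p was 0.0522, just above the threshold, and over the 21 refits it ran from 3e-04 to 0.0522.

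Mavs, the adaptor on which the RIG-I and MDA5 signals meet, was 54.1, 56.5 and 51.4 CPM in siCTL and 58.1, 52.1 and 53.9 CPM in siBcat. These libraries overlapped, and the log2 difference was 0.02 (SE 0.064, adjusted p = 0.846, edgeR). Its sign changed under library size scaling and without siCTL replicate 3 or siBcat replicate 1. Irf3, the transcription factor held ready in the cytosol of resting cells, was 35.8, 35.3 and 24.5 CPM in siCTL and 35.7, 34.2 and 33.7 CPM in siBcat. Replicate 3 of siCTL lay below the other 8 libraries of the series. The log2 difference was 0.12 (SE 0.12, adjusted p = 0.475, edgeR), and without siCTL replicate 3 it was -0.04 (adjusted p = 0.697).

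Irf7, the partner of Irf3 whose level limits the amplification of an interferon response, was 2.76, 3.13 and 3.78 CPM in siCTL and 31.4, 10.6 and 14.5 CPM in siBcat. The lowest siBcat library was well above the highest siCTL library, and the siBcat libraries differed widely from each other. The change was 5.81-fold (log2 2.54, SE 0.39, adjusted p = 0.000907, edgeR). Without siBcat replicate 1 it was 3.86-fold (log2 1.95, SE 0.18, adjusted p = 1.74e-05).

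**Figure D1:**
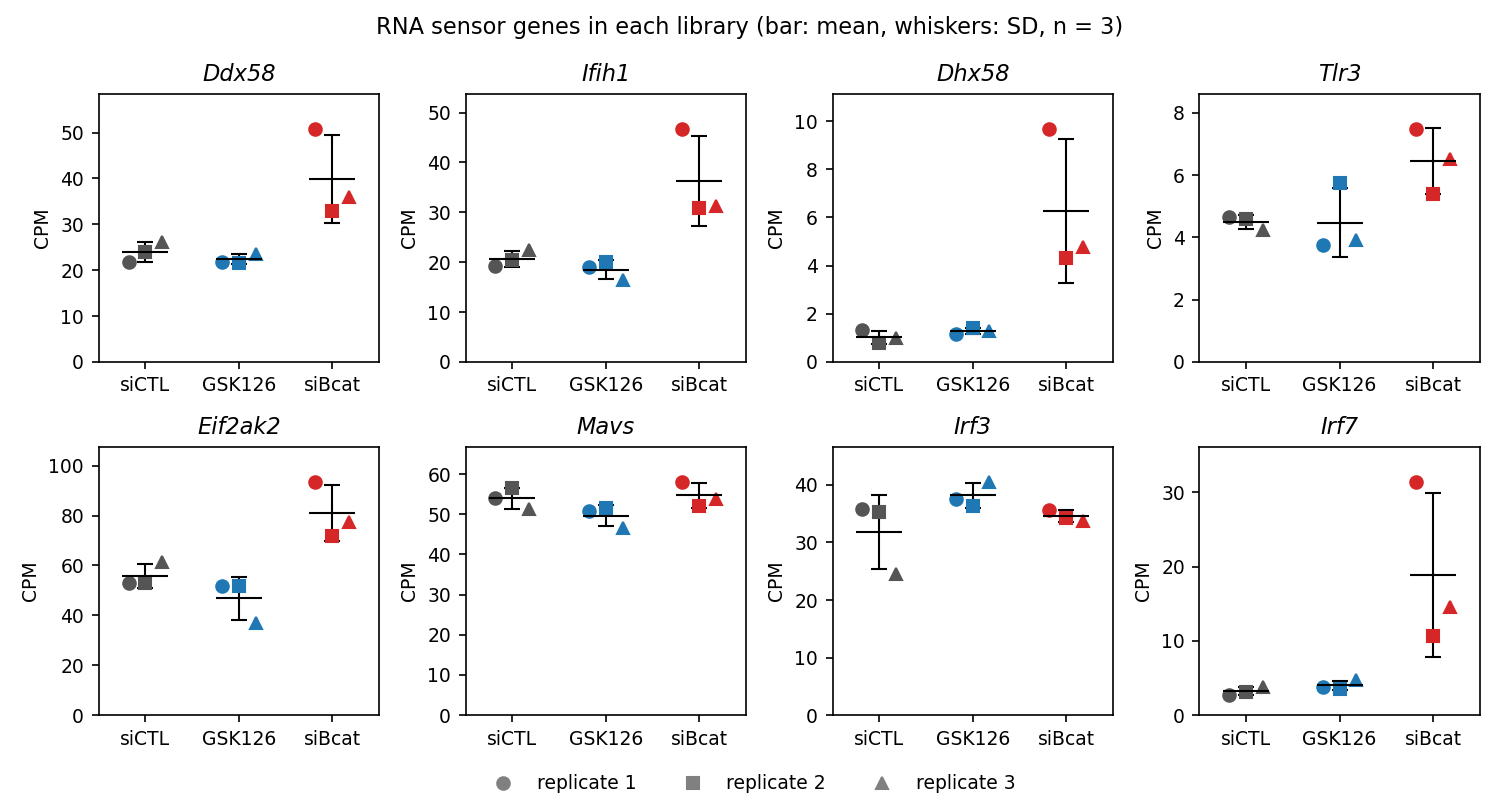
Level of each gene (vertical axis, CPM, from 0) in the 9 libraries, with circles, squares and triangles for replicates 1, 2 and 3, bars for the mean and whiskers for the SD (n = 3). The siBcat circles are the highest siBcat points for all 8 genes, at 31.4 CPM for Irf7 and 50.9 CPM for Ddx58.

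The siBcat libraries were not alike in these genes. Replicate 1 was the highest siBcat library for all 8 members, and for 7 of the 8 the order was replicate 1, then 3, then 2. Its level over that of replicate 2 was 2.96-fold for Irf7, 2.24-fold for Dhx58, 1.54-fold for Ddx58, 1.51-fold for Ifih1, 1.39-fold for Tlr3 and 1.30-fold for Eif2ak2. For Mavs and Irf3 the same ratio was 1.12 and 1.04, and for Ctnnb1 it was 1.00. The coefficient of variation over the 3 siBcat libraries was 58.6% for Irf7 and 47.5% for Dhx58, against 0.59% for Ctnnb1. Levels of the sensors thus differed between libraries in which the targeted RNA was at nearly the same level.

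The rise did not rest on that library for most members. Without siBcat replicate 1, Ddx58 was 0.51 higher than in siCTL on the log2 scale (adjusted p = 0.00144), Ifih1 0.58 (0.00124), Dhx58 2.14 (2.4e-05) and Eif2ak2 0.41 (0.0469), all by edgeR. Tlr3 was then 0.39 higher with an adjusted p of 0.133, so the call was lost. The counts of members past the threshold over the 9 fits that leave out 1 library ran from 4 to 6.

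A response to siRNA itself was considered beside the loss of β-catenin. The siCTL group shows how the sensors stood with a non-targeting siRNA, and relative to it the siBcat group differed in the sequence of its siRNA as well as in Ctnnb1. The libraries analysed here include no untransfected cells and no loss of β-catenin without siRNA. A response to that siRNA and a response to β-catenin loss therefore cannot be told apart in these libraries.

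**Figure D2:**
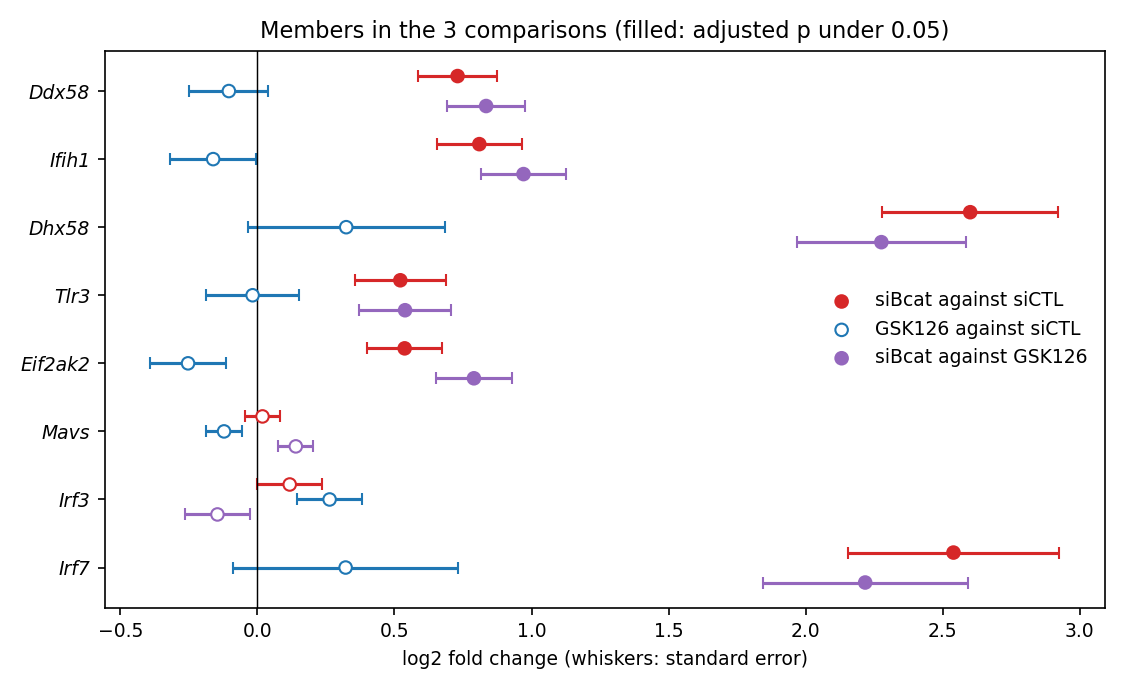
Log2 fold change of each gene (horizontal axis) in siBcat against siCTL (red), GSK126 against siCTL (blue) and siBcat against GSK126 (purple), with whiskers for the standard error and filled points for an adjusted p under 0.05. Dhx58 and Irf7 lie beyond 2 in both siBcat comparisons, Mavs and Irf3 lie near 0, and no blue point is filled.

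In GSK126 against siCTL, which asks what the Ezh2 inhibitor did at a constant non-targeting siRNA, 0 of the 8 members were past the threshold in either direction by edgeR. DESeq2 and limma-voom also called 0. At an unadjusted p under 0.05, edgeR gave 1 member higher and 0 lower. Among all genes tested, 25% were called, with 14.3% higher and 10.7% lower. The median log2 fold change of the members was -0.06, against 0.00625 over all genes.

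For the helicases, the GSK126 libraries held 21.9, 21.6 and 23.6 CPM of Ddx58, 19.0, 20.1 and 16.4 CPM of Ifih1, and 1.17, 1.42 and 1.28 CPM of Dhx58. Each of these sets overlapped its siCTL values. The log2 differences were -0.10 for Ddx58 (adjusted p = 0.636), -0.16 for Ifih1 (0.484) and 0.32 for Dhx58 (0.543), by edgeR. Irf7 was 3.85, 3.49 and 4.73 CPM, again overlapping siCTL, with a log2 difference of 0.32 (SE 0.41, adjusted p = 0.605).

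Tlr3 was 3.75, 5.74 and 3.92 CPM in GSK126, a set with 1 high library, and its log2 difference from siCTL was -0.02 (SE 0.17, adjusted p = 0.953, edgeR). Its sign changed with the scaling. Mavs was 50.8, 51.5 and 46.6 CPM, with a log2 difference of -0.12 (adjusted p = 0.186). Irf3 was 37.6, 36.4 and 40.6 CPM, the 1 member whose GSK126 libraries were all above siCTL, against 21.9% of all genes. Its log2 difference was 0.26 (SE 0.12, adjusted p = 0.125). Eif2ak2 was 51.7, 51.8 and 37.0 CPM, all below siCTL as for 20.2% of all genes, with replicate 3 far below the others and a log2 difference of -0.25 (SE 0.14, adjusted p = 0.212). That library is the one with the strongest length trend, and without it the Eif2ak2 difference was -0.11 (adjusted p = 0.592).

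Because both comparisons above use the siCTL libraries, the direct comparison of siBcat with GSK126 tests whether the treatments differed. Of the 8 members, 6 were higher in siBcat and 0 lower by edgeR, with DESeq2 and limma-voom giving the same counts. At an unadjusted p under 0.05, edgeR gave 7 higher and 0 lower. Of all genes, 41.2% were called here, 19.3% higher in siBcat and 21.9% lower. Of the calls over all genes, 46.8% were higher with TMM scaling and 33.4% with library size only. The log2 differences were 2.28 for Dhx58 (SE 0.31, adjusted p = 0.000136), 2.22 for Irf7 (SE 0.37, adjusted p = 0.00132) and 0.97 for Ifih1 (SE 0.16, adjusted p = 0.000626). They were 0.83 for Ddx58 (adjusted p = 0.00093), 0.79 for Eif2ak2 (0.00123) and 0.54 for Tlr3 (0.0204).

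Tlr3 lost this call without GSK126 replicate 1 (adjusted p = 0.0825), siBcat replicate 1 (0.095) or siBcat replicate 3 (0.0558), and its libraries overlapped between the groups. For Mavs the log2 difference was 0.14 (SE 0.064, adjusted p = 0.0987), with every siBcat library above every GSK126 library, as for 6 of the 8 members and 25.3% of all genes. With the length trend of each library removed, Mavs passed the threshold at 0.15 (adjusted p = 0.0293). Irf3 was 0.15 lower on the log2 scale in siBcat (log2 -0.15, SE 0.12, adjusted p = 0.35), with every siBcat library below every GSK126 library, as for 27.2% of all genes.

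Compared per length (CPM per kilobase of the length given in the table), the members fell into a high and a low set. In siCTL the order was Mavs at 16.9 ± 0.795, Irf3 at 14.5 ± 2.91, Eif2ak2 at 12.9 ± 1.13, Ddx58 at 4.86 ± 0.447, Ifih1 at 3.75 ± 0.294, Irf7 at 1.73 ± 0.277, Tlr3 at 1.04 ± 0.0513 and Dhx58 at 0.426 ± 0.109 CPM per kilobase (SD, n = 3). Mavs, Irf3 and Eif2ak2 overlapped with their neighbours in this order, and the other neighbours did not overlap. In the control cells, the RNA of Mavs, Irf3 and Eif2ak2 thus stood above that of the helicases per length, by unequal margins. The order in GSK126 began with Irf3 (17.4 ± 0.977), Mavs (15.6 ± 0.816) and Eif2ak2 (10.8 ± 1.97) and then ran as in siCTL, with no overlap between neighbours.

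In siBcat the order per length was Eif2ak2 at 18.7 ± 2.59, Mavs at 17.2 ± 0.97, Irf3 at 15.8 ± 0.474, Irf7 at 10.1 ± 5.95, Ddx58 at 8.08 ± 1.94, Ifih1 at 6.58 ± 1.65, Dhx58 at 2.60 ± 1.23 and Tlr3 at 1.495 ± 0.245 CPM per kilobase. Irf7 had moved from the sixth place to the fourth, with libraries that overlapped those of Irf3 and Ddx58. Dhx58 had moved above Tlr3, with no overlap between them. Ddx58 and Ifih1 overlapped each other in this group.

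**Figure D3:**
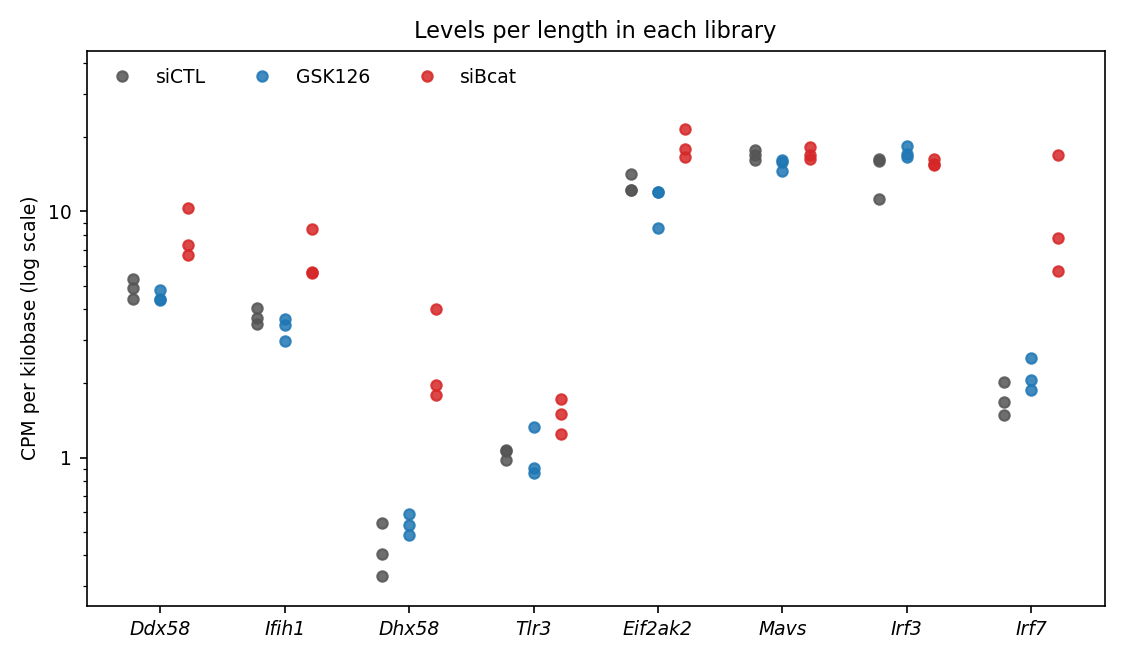
Level per length of each gene (vertical axis, CPM per kilobase, log scale) in the siCTL (grey), GSK126 (blue) and siBcat (red) libraries, 1 point a library. Mavs and Irf3 stay in 1 band in all 3 groups, while the Irf7 points of siBcat reach 16.9, the level of Mavs in siCTL.

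The 10 genes whose log2 level over the 9 libraries was most like the mean profile of the 8 members are named here. The likeness is Pearson's r over 9 libraries that fall into 3 groups, among 10146 genes of at least 2 CPM on average, and is a description. Highest were Stat2 (0.993), the immunity-related GTPase Irgm2 (0.991) and Shisa5 (0.989). The RNA-editing enzyme Adar (0.985), Ddx24 (0.985), Ifi44 (0.984) and the 2'-5' oligoadenylate synthetase-like gene Oasl2 (0.984) followed. Then came Wdr1 (0.979), the alanyl-tRNA synthetase Aars (0.979) and Irf9 (0.979). The mean profile itself was -0.35 to -0.31 (log2, centred) in siCTL, -0.34 to -0.22 in GSK126, and 0.99, 0.36 and 0.51 in siBcat replicates 1, 2 and 3.

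Stat2, a subunit of the interferon-activated complex, was 23.6, 19.8 and 24.1 CPM in siCTL and 72.1, 41.0 and 49.9 CPM in siBcat. Its siBcat libraries ranked as in the sensors, but the 10 genes were picked by likeness over these same libraries. Their ranking and direction in siBcat, with the adjusted p-values given here, are therefore no separate evidence. The log2 change of Stat2 was 1.27 (SE 0.18, adjusted p = 0.000516, edgeR). That of Irf9, the DNA-binding subunit of the complex, was 1.16 (SE 0.16, adjusted p = 0.000347). Of the others alike in profile, Oasl2 rose by 3.12 (SE 0.57, adjusted p = 0.00357), and by 2.24 without siBcat replicate 1, and Irgm2 rose by 1.149 (SE 0.17, adjusted p = 0.000303). Ifi44 and Adar rose too and are given with their lists below. Shisa5 rose by 0.33, Ddx24 by 0.40 and Aars by 0.28, while Wdr1 differed by 0.09 (adjusted p = 0.111). Likeness in profile thus went with changes of very unequal size. Of the 10 genes alike in profile, 3 had the response element core in a promoter window.

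Around the members, the pathway's adaptors, kinases and ubiquitin ligases showed no common direction. Of 28 tested in siBcat against siCTL, 6 rose and 5 fell, with a median log2 change of 0.01. Without siCTL replicate 2 or siBcat replicate 2, 3 rose. Of all genes tested, 17.7% rose and 17.5% fell in this comparison, so these counts are near the shares over all genes. The same shares apply to each list below, and counts near them are not particular to a list. Trim25, the ubiquitin ligase that activates RIG-I, rose by 0.53 (SE 0.072, adjusted p = 9.27e-05, edgeR). The ubiquitin editor Tnfaip3 (A20), which restrains the pathway, fell by 0.77, the deubiquitinase Cyld fell by 0.39, and the kinase Ikbke, which phosphorylates Irf3 and Irf7, fell by 0.37. For Tnfaip3 the siCTL libraries held 31.5, 27.5 and 28.6 CPM and the siBcat libraries 18.4, 16.1 and 17.0 CPM, with no gap between replicate 1 and the others like that of the sensors.

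Of 24 other RNA sensors and antiviral helicases, 19 were tested, and 9 rose and 1 fell in siBcat, with a median of 0.23. Without GSK126 replicate 3 or siBcat replicate 1, 2 fell. Under a stricter filter of 1 CPM in 3 libraries, 5 rose. Oas1b had 2, 4 and 6 counts in siCTL and 40, 22 and 12 in siBcat. Oas3 had 8, 8 and 12 in siCTL and 46, 22 and 22 in siBcat. Both passed the filter only through the siBcat libraries, so their rises are no separate evidence. Adar rose by 0.83 (SE 0.12, adjusted p = 0.00021, edgeR), from 25.6, 26.7 and 30.2 CPM to 59.2, 40.7 and 46.7 CPM. Ddx60, a helicase that aids RIG-I, rose by 2.97 on the log2 scale from less than 1 CPM in each siCTL library, and by 3.67 without siCTL replicate 3. Unc93b1, the chaperone that brings Tlr3 to endosomes, rose by 0.40. Oas and Oasl genes are close paralogs, so their counts may be shared between copies. Zbp1 is also counted among the DNA sensors below, and Oasl1 among the targets of Irf3 and Irf7.

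Of 12 tested genes known as targets of Irf3 and Irf7, 9 rose and 1 fell in siBcat, with a median log2 change of 2.02. Cmpk2, a mitochondrial nucleotide kinase, rose by 2.83 (SE 0.35), Ifit1, which binds foreign RNA ends, by 3.33 (SE 0.46) and Ifi44 by 3.85 (SE 0.63), by edgeR. Without siBcat replicate 1, Ifit1 rose by 2.73 and Ifi44 by 2.87. Isg15, the ubiquitin-like modifier, was chosen after its values were seen. It stood at 1.54, 0.970 and 2.12 CPM in siCTL and at 43.7, 11.7 and 14.0 CPM in siBcat. It rose by 3.89, and by 3.04 without siBcat replicate 1. Ifit2 fell by 0.47 (SE 0.083, adjusted p = 0.000797), from 49.6, 49.7 and 57.5 CPM to 41.4, 35.1 and 36.9 CPM. Ifit1 and Ifit2, neighbours in one gene family, thus moved in opposite directions. Of the 12 targets with a promoter window, out of 16 listed, 7 held the response element core.

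The interferon RNAs looked up were not detected on day 4, and other interferon genes were not looked up. Ifnb1, Ifna2, Ifna4, Ifnk and the lambda genes Il28a and Il28b had 0 counts in each of the 9 libraries. By counting error alone, this allows up to 0.106 to 0.146 CPM (3 fragments, or 6 counts, since all counts were even). Icam1 and Thy1 were also at 0 in each library, and whether such entries could be counted is not known. Of the 18 other genes of receptors and signalling tested, 5 rose and 4 fell, with a median of -0.09; without GSK126 replicate 3, 7 fell. Usp18, which shuts down the type I receptor, rose by 4.58 (SE 0.55), and by 3.89 without siBcat replicate 1. The phosphatase Ptpn11 rose by 0.33, while both interferon-gamma receptor chains, Ifngr1 and Ifngr2, fell by 0.34. Ifnar1, a chain of the type I receptor, was chosen after its values were seen and also fell by 0.34 (adjusted p = 0.000448, edgeR). In GSK126 against siCTL, Ifngr1 rose by 0.32 (adjusted p = 0.000462).

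**Figure D4:**
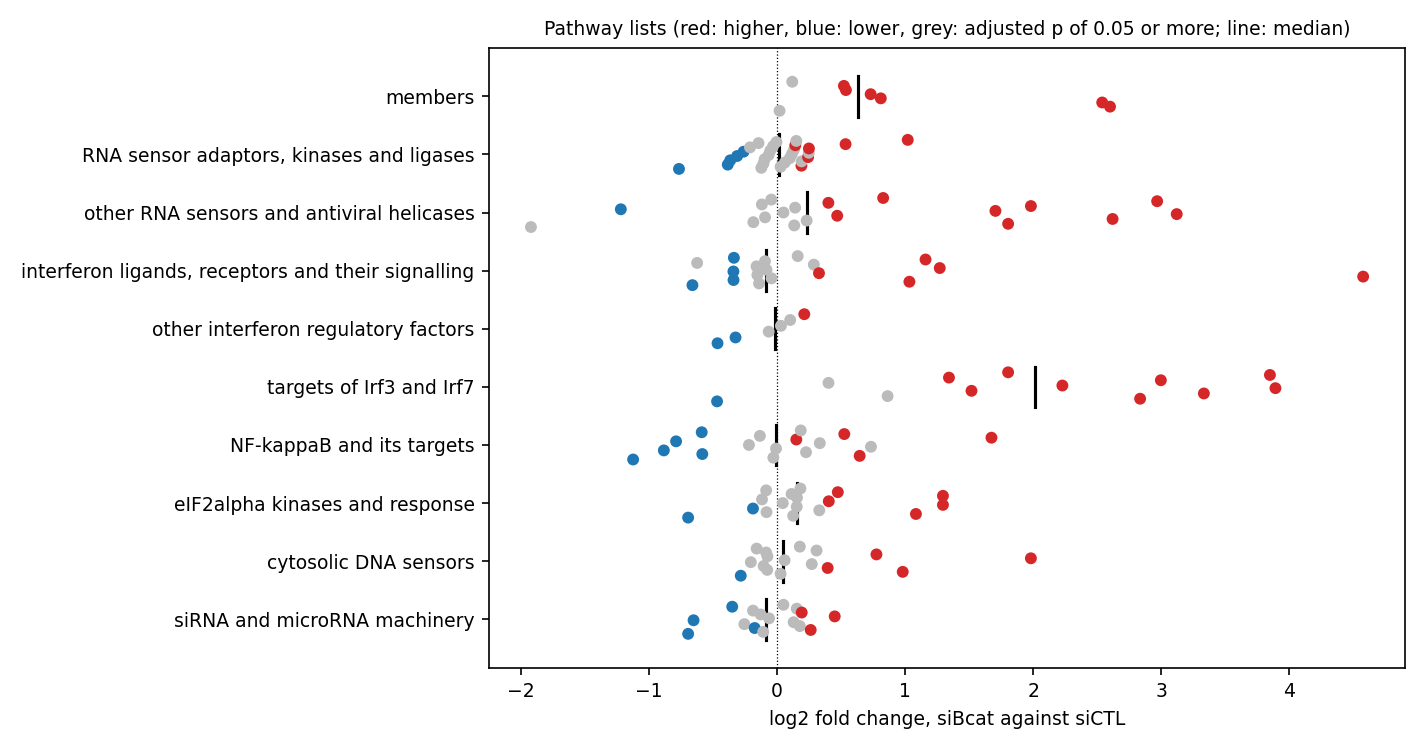
Log2 fold change in siBcat against siCTL (horizontal axis) of each tested gene, 1 point a gene, by pathway list (rows), with red for higher and blue for lower at an adjusted p under 0.05, grey for the rest, and a line at the median. The targets of Irf3 and Irf7 have a median of 2.02, with Ifit2 at -0.47, and the adaptors centre on 0.01.

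The other interferon regulatory factors did not follow Irf7. Of 6 tested, 1 rose and 2 fell. Irf1, which acts at the same elements, fell by 0.33 (SE 0.062, adjusted p = 0.00129, edgeR). Irf4 fell by 0.47 and lost its call without siCTL replicate 2, siBcat replicate 2 or siBcat replicate 3, leaving 1. Irf2bp2 rose by 0.21 and lost its call in the fits that left out siBcat replicate 1 or 2, or siCTL replicate 2 or 3, and with a replicate block (adjusted p = 0.0665).

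NF-κB, the other branch downstream of Mavs and Tlr3, was mixed. Of 17 genes tested, 4 rose and 5 fell, beside 17.7% and 17.5% of all genes. Among those that rose, Il6 had 6, 8 and 12 counts in siCTL and 22, 42 and 20 in siBcat. It passed the filter only through the siBcat libraries, so its rise is no separate evidence. The adhesion molecule Vcam1 fell by 0.79, the chemokine Ccl2 by 0.89 and the inhibitor Nfkbia by 0.59, while the cyclooxygenase Ptgs2 rose by 0.64, all past the threshold. The eIF2α list holds the other eIF2α kinases and the response to eIF2α phosphorylation by any of them, so it is not particular to PKR. Of its 17 genes, 5 rose and 2 fell, with a median of 0.15. Atf4 was not past the threshold (log2 0.13, adjusted p = 0.199, edgeR). Without GSK126 replicate 3, 9 rose and 4 fell, and 1 fell in each fit that left out siBcat replicate 1 or 3, or siCTL replicate 1 or 3. Asns, the asparagine synthetase induced when eIF2α is phosphorylated, rose by 1.29 (SE 0.067), from 28.1, 33.2 and 33.0 CPM to 75.1, 76.8 and 79.4 CPM. The pseudokinase Trib3 rose by 1.08 and eIF2α itself, Eif2s1, by 0.40. Prkra (PACT), a protein activator of PKR that also binds Dicer, fell by 0.70, from 26.2, 23.7 and 24.7 CPM to 14.9, 16.4 and 14.7 CPM. For Asns and Prkra, replicate 1 was not the highest siBcat library. In GSK126 against siCTL, 3 of the 17 genes rose and 0 fell, beside 14.3% and 10.7% of all genes. Asns was among those that rose (by 0.52, adjusted p = 0.000137, edgeR).

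For cytosolic DNA sensing, 4 of 16 genes tested rose and 1 fell, beside 17.7% and 17.5% of all genes. Without siCTL replicate 2, 2 rose, and without GSK126 replicate 3, 3 fell. With only the 2 groups compared, 1 rose and 3 fell, and with no filter 2 rose. Tmem173 (STING), the adaptor for DNA sensing, rose by 0.39 (SE 0.055, adjusted p = 0.00012), Ifi203 by 0.98 and Zbp1, a sensor of left-handed nucleic acids, by 1.98. Samhd1, which degrades deoxynucleotides, fell by 0.28. Zbp1 rose by 0.99 without siBcat replicate 1 and lost its call without any of the siCTL libraries or without GSK126 replicate 3 (adjusted p = 0.0693, 0.0591, 0.058 and 0.0813). The Zbp1 call was also lost by limma-voom (adjusted p = 0.0533). By edgeR it was lost with no filter (0.0753) and with only the 2 groups compared (0.12).

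Genes of the siRNA and microRNA machinery, on which the knockdown depends, were mixed. Of 16 tested, 3 rose and 4 fell, with a median of -0.09, beside 17.7% and 17.5% of all genes that rose and fell. Without GSK126 replicate 3, 6 rose, and without any 1 of the siCTL libraries or siBcat replicate 1 or 3, 1 rose. Tnrc6a, a partner of Argonaute, rose by 0.45 (SE 0.081, adjusted p = 0.000864, edgeR), while its paralog Tnrc6c fell by 0.65 and the helicase Mov10 by 0.35. Prkra belongs to this list too.

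Under GSK126, none of the 12 tested targets of Irf3 and Irf7 were past the threshold by edgeR or limma-voom and 1 was by DESeq2, higher. At an unadjusted p under 0.05, edgeR gave 2 higher and 1 lower. Without siBcat replicate 1, whose spread enters the shared estimate, 3 were higher. The median of this list was 0.49, on the same side as in siBcat. Usp18 was picked for this comparison after its values were seen. Usp18 stood at 1.03, 0.965 and 1.40 CPM in GSK126 against 0.181, 0.265 and 0.424 CPM in siCTL, with no overlap, and its log2 difference was 1.94 (adjusted p = 0.0553, edgeR). Its adjusted p ran from 0.00093 to 0.254 over the 21 refits and was 0.00093 without siBcat replicate 1. The members had 0 calls in this comparison in each of the 9 fits that leave out 1 library.

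Of the 19 other RNA sensors tested in GSK126 against siCTL, 1 was higher, Parp12 (0.44, adjusted p = 0.0484, edgeR), and it was lost in each fit without 1 of the siCTL or GSK126 libraries. None fell by edgeR or limma-voom, 3 fell by DESeq2, and 4 were lower at an unadjusted p under 0.05. Without GSK126 replicate 2 or 3, 3 and 2 fell. Of the siRNA machinery, 5 of 16 fell, against 10.7% of all genes, among them the double-stranded RNA transporter Sidt2 (by 0.31) and Tnrc6a (by 0.34). Without siCTL replicate 2 or 3, 2 of them were lower, and without siCTL replicate 1 or siBcat replicate 2 or 3, 3 were. Tnrc6a was 68.7, 67.6 and 53.2 CPM in GSK126 against 80.3, 79.1 and 80.5 CPM in siCTL, lowest in replicate 3, the library with the strongest length trend, and with that trend removed its difference was -0.18. Irf5, the 1 other interferon regulatory factor that rose under GSK126, was 0.53 higher (SE 0.087, adjusted p = 0.000786).

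Haematopoietic cells express many of these genes, so their markers are given beside the results. Of 21 macrophage, dendritic and lymphoid markers in the table, 10 to 15 were at 0 in a library, and Ptprc, Emr1, Tyrobp, Flt3, Cd3e, Nkg7 and Mpo were among those at 0 in all 9. The summed level was 11.9 to 14.6 CPM in siCTL, 9.72 to 12.1 CPM in GSK126 and 12.2 to 13.0 CPM in siBcat, so it overlapped between siCTL and siBcat. In siBcat replicates 1, 2 and 3 it was 13.0, 12.8 and 12.2 CPM. Cd14 made up most of the sum, at 8.58 to 9.35 CPM in siBcat and 8.66 to 11.5 CPM in siCTL. Without Cd14 the sum was 2.91 to 3.27 CPM in siCTL, 3.03 to 3.61 CPM in GSK126, and 3.65, 3.97 and 3.63 CPM in siBcat, where every library was above every siCTL library. The part of such cells in the results was not tested. Of the 6 such markers tested, 2 were higher in siBcat than in siCTL (Lyz2 and Cd74) and 1 lower (Cd68). Of all genes, 17.7% were higher and 17.5% lower. Lyz2 stayed under 0.5 CPM in each library and passed the filter only through the siBcat libraries, so its rise is no separate evidence. Endothelial markers summed to 1.45 to 2.26 CPM over the 9 libraries. Stromal markers, which check the cell type, summed to 35470 to 41220 CPM in siCTL, 40710 to 43540 CPM in GSK126 and 31650 to 33930 CPM in siBcat, with Thy1 at 0 in each library. Col1a1, Col1a2, Col3a1, Cxcl12 and Vim made up most of these sums, while Eng, Nt5e and Lepr were at 7.34, 1.30 and 0.73 CPM in siCTL. The siBcat sums were all below the siCTL sums. Of 13 stromal markers tested, 5 fell in siBcat, among them Col3a1 (by 0.62), Cxcl12 (by 0.65) and Vcam1. The 3 that rose were Cd44 (by 0.85), Ly6a (by 0.78) and Vim (by 0.28), so the markers had no common direction. The part of this shift in the sensors' results was not tested.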

How the data were processed

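RNA was sequenced from 9 libraries, 3 in each of 3 groups; groups follow the sample titles. The submitters' processing notes name mm10 and the tools TopHat2 2.0.6, HTSeq and bcl2fastq, without settings, gene annotation or strand mode. The table the authors deposited holds a whole-number count per gene and library. All counts were even (0 odd values), as if both mates of a pair were counted. The length per gene is the one in that table. Another 6 columns of per-sample values were not used, nor were the RPKM columns.

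Counts were filtered (filterByExpr by group, minimum count 10, minimum total 15), scaled by TMM and tested with edgeR 4.0.16 in R 4.3.3 (robust quasi-likelihood fit over all 9 libraries, Benjamini-Hochberg over 13240 genes, threshold 0.05). The filter left out 10118 entries; 69 entries share 26 names. The common biological coefficient of variation was 8.12%. CPM are TMM-scaled, and standard errors are the log2 fold change over the root of F. The script was tested on simulated counts. Alternatives used DESeq2 1.42.0, limma 3.58.1, other scalings, filters and sample sets, a threshold of 0.01, and each library left out in turn.

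The members and the 12 lists beside them were chosen with earlier results of these data known. Genes named beside the members are Ctnnb1, Ifnb1 and the 10 genes most like the members in profile. Named too are up to 4 genes a list with the smallest p in siBcat against siCTL. The same holds for genes of a list called in GSK126 against siCTL (the smallest p). Other genes, among them Atf4, were named outside these rules, with their values known. Some genes that these rules name or the lists count are not reported here by name. Promoter windows are from RefSeq (GRCm38.p6) and positions from GENCODE M21. Dhx58 had no window. Intervals and floors cover counting error.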

Additional observations from a re-analysis of the deposited data

How the results depend on the processing

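The counts of members past the threshold (6 higher in siBcat against siCTL, 0 in GSK126 against siCTL, 6 higher in siBcat against GSK126) stayed within 1.5 times those values in each of the 21 refits and at a threshold of 0.01. Leaving out 1 library gave 4 to 6, 0 and 5 to 6. Over all genes, a threshold of 0.01 changed the counts to 1488 higher and 1519 lower in siBcat against siCTL, 1095 and 659 in GSK126 against siCTL, and 1699 higher in siBcat against GSK126. Leaving out 1 library gave 1695 to 3202 higher and 1815 to 3118 lower in siBcat against siCTL, 1340 to 2029 and 988 to 1815 in GSK126 against siCTL, and 2053 to 3061 and 2363 to 3257 in siBcat against GSK126. Differences near 0 changed sign. Mavs in siBcat against siCTL was -0.01586 with library size only, and ran from -0.03719 to 0.05206 when 1 library was left out, below 0 without siBcat replicate 1 or siCTL replicate 3. Irf3 in the same comparison ran from -0.0398, without siCTL replicate 3, to 0.2083. Tlr3 in GSK126 against siCTL was 0.01641 with library size only, 0.02877 with the length trend removed, and ran from -0.2356 to 0.092 when 1 library was left out, above 0 without siCTL replicate 1, GSK126 replicate 1 or GSK126 replicate 3. The cause was not tested.

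The deviations of the 9 same-numbered pairs of libraries had correlations from -0.0306 to 0.0688 and those of the 18 other pairs from -0.0742 to 0.0574. No same-numbered pair passed 0.1, so the libraries were taken to share only a number. With the replicate number as a block, siBcat against siCTL had 2278 genes higher and 2236 lower, GSK126 against siCTL 1786 and 1349, and siBcat against GSK126 2486 and 2781. The block left the member counts at 6, 0 and 6. Dhx58 and Irf7 had the lowest counts of the members in siCTL, 36 to 58 and 122 to 178, which limits their precision.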
